A study of Oryza sativa with 26 samples.

Results

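Rice anthers at the tetrad and microspore stages were compared with anthers that had not yet entered meiosis. The stages M3, from diplotene to the tetrad, and P1, with microspores of a single nucleus, are those the comparison treats as having an active tapetum, the layer that feeds the developing pollen. They were set together (4 arrays of M3 and 3 of P1) against An1, when archesporial cells form beneath the epidermis, and Mei1, when pollen mother cells pass through premeiotic S and G2 phase (3 arrays each). These 13 arrays were chosen by their titles alone, out of 26 Affymetrix Rice Genome Arrays that cover 8 stages; M1 (leptotene) and M2 (zygotene and pachytene) lie between the 2 sides, and P2 (bicellular pollen) and P3 (tricellular pollen) follow them. The plants (Oryza sativa) were grown in paddy fields at Mishima, with no treatment or altered genotype in the labels of any stage, and the cultivar was not given in the sources used here. By their titles the arrays within a stage are biological replicates; nothing states that they came from separate plants or plots, so p-values measure the spread between these arrays, which may be partly technical. Whole anthers were used, so fewer cells of a type and less RNA per cell cannot be told apart.

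An anther carries the meiocytes inside wall layers, of which the tapetum is the innermost. In grasses the tapetum secretes lipids, proteins and sugars, builds the precursors of sporopollenin (the tough polymer of the pollen wall) and later dies in an ordered way. Its fate is set early by a receptor kinase and its peptide ligand, and its mature state by a cascade of transcription factors. Before meiosis the cells of the young anther divide, so that genes of DNA replication and mitosis are active there.

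All levels are intensities scaled so that the 75th percentile of each array is 1, and all differences are on the log2(intensity + 1) scale, M3 and P1 minus An1 and Mei1. The pseudocount of 1 makes these differences smaller than the true ones for dim genes. A probe set was called at an adjusted p (limma, Benjamini-Hochberg over all 37206 probe sets tested) under 0.05 and a log2 difference of at least 1. The medians of the 13 arrays lay between 0.242 and 0.302. Arrays of M3 correlated with each other at 0.963 to 0.986 (Pearson, across probe sets), those of P1 at 0.936 to 0.984, those of An1 at 0.993 to 0.995 and those of Mei1 at 0.971 to 0.988. P1 replicate 3 stood apart: it correlated with the M3 arrays at 0.867 to 0.902, against 0.917 to 0.965 for the other P1 arrays, and with the P2 arrays at 0.808 to 0.888, against 0.767 to 0.847.

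The label of an active tapetum was set beside 7 tapetum markers with a probe set (UDT1 had no matching name). They were chosen with earlier results of these data known, so they are no independent check. C4, C6, CYP703A3, TDR, EAT1 and PTC1 were called higher in M3 and P1, and RTS was not (log2 difference 2.19, adjusted p = 0.128). Its 4 M3 values (0.126 to 0.308) lay near the premeiotic level (0.125 to 0.283), while P1 held 3.87, 97.8 and 156. RTS was called, at 2.56, where stages were fitted separately and weighted equally (adjusted p = 0.00246 over the 13 arrays and 8.33e-05 over all 26). PTC1 was not called in P1 alone (0.90). Of 6 tapetum regulators tested, 2 that were not among these markers (BHLH142 and API5) were lower without a pooled call. Of the germ-cell markers, MEL1 fell, and PAIR2 (log2 difference -0.78) and DMC1 (-0.35) were not called. The 1 measured late pollen gene, ADF-1, lay at 0.218 to 0.486 in M3 and P1 and at 0.336 to 0.393 in An1 and Mei1 and was not called.

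Of the 37206 probe sets tested, 2161 were called (5.81%): 1295 were higher in M3 and P1 (3.48%) and 866 were lower (2.33%), from 913 and 611 genes. At the adjusted p alone, 18792 passed (50.5%), so the size threshold decided most of the calls. The rises were larger than the falls: 63 of the higher and 2 of the lower probe sets differed by at least 4 log2 units, and 377 and 89 by at least 2. Among the higher calls, the 7 values lay wholly above the 6 for 1122, and among the lower calls wholly below for 785; over all tested, 4265 (11.5%) and 6199 (16.7%) did. The median difference over all tested probe sets was -0.01. Without P1 replicate 3, 1318 were higher and 843 lower.

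Most of the difference was present in each stage by itself. M3 alone had 1275 higher (3.43%) and 784 lower (2.11%) against the mean of An1 and Mei1, and P1 alone had 1429 (3.84%) and 1110 (2.98%); both tests share the 6 premeiotic arrays. At the adjusted p alone, 17711 passed in M3 (47.6%) and 17336 in P1 (46.6%), and 4444 in P1 against M3 (11.9%). Of the 1295 pooled rises, 863 were called in both stages, 206 in M3 and not P1, and 225 in P1 and not M3. Of the 866 pooled falls, 665 were called in both, 46 in M3 and not P1, and 155 in P1 and not M3. A call in one stage and not the other does not show that the stages differ; that was tested directly and is given after the gene groups.

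The strongest rises were of genes whose premeiotic intensity was near the bottom of the scale. The probe set of LOC4346354, which has no symbol in the tables used, read 120 at the lowest, 135 at the median and 204 at the highest in M3 and P1, against 0.163, 0.195 and 0.260 in An1 and Mei1 (log2 difference 6.96, SE 0.115, adjusted p = 1.04e-14). LOC4343894, also without a symbol, ran from 72.3 to 204 (median 163) in M3 and P1 and from 0.245 to 0.356 (median 0.293) in An1 and Mei1, a difference of 6.87. Both gaps far exceeded the spread within either side, and in neither gene did the sides overlap.

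Lipid transfer proteins, small secreted proteins that carry lipids to the anther surface and the pollen wall, included the largest rises among genes with a symbol. C4 read 156, 140, 131 and 152 in M3 and 135, 152 and 96.2 in P1, against 0.217, 0.196 and 0.206 in An1 and 0.152, 0.212 and 0.239 in Mei1. The log2 difference was 6.83 (SE 0.099, adjusted p = 2.18e-15), and every M3 and P1 array was above every premeiotic one. C6, a tapetal lipid transfer protein needed for the pollen wall, read 70.7, 127, 97.3 and 129 in M3 and 135, 166 and 137 in P1, against 0.103 to 0.178 in An1 and 0.103 to 0.190 in Mei1 (6.71, SE 0.152, adjusted p = 4.92e-13). LTP110-A had 14.6 to 45.2 (median 41.3) in M3 and P1 and 2.39 to 4.87 (median 3.08) in An1 and Mei1, a difference of 3.09. In all, 5 of 7 lipid transfer genes tested were higher and 0 lower, with a list median of 1.20; with 1 probe set a gene, 900 of the 15964 genes tested were higher (5.64%) and 598 lower (3.75%), and the median over them was -0.04. LTPL1 (1.20) was called although its sides overlapped, and LTP-2 and LTP2-B were not called.

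Genes for the precursors and structure of the pollen wall rose with them, 3 of the 3 tested, against 5.64% of all genes. CYP703A3, a cytochrome P450 that hydroxylates fatty acids for sporopollenin, read 102, 91.5, 81.3 and 94.3 in M3 and 54.7, 44.2 and 4.04 in P1, against 0.143 to 0.321 in An1 and 0.128 to 0.401 in Mei1 (log2 difference 5.39, SE 0.559, adjusted p = 2.00e-06). P1 replicate 3 was far below the other arrays of M3 and P1, though still above every premeiotic array. BURP13, known as RAFTIN1 and needed for the particles that carry wall material to the microspores, had 63.1 to 100 (median 90.7) in M3 and P1 and 0.352 to 1.04 (median 0.532) in An1 and Mei1, a difference of 5.73. CHS1, whose enzyme begins flavonoid synthesis, had 16.6 to 44.6 (median 34.0) and 0.207 to 0.333 (median 0.255), a difference of 4.68. The summed level of these genes was 121 to 218 in M3 and P1 and 0.741 to 1.71 in An1 and Mei1.

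**Figure D1:**
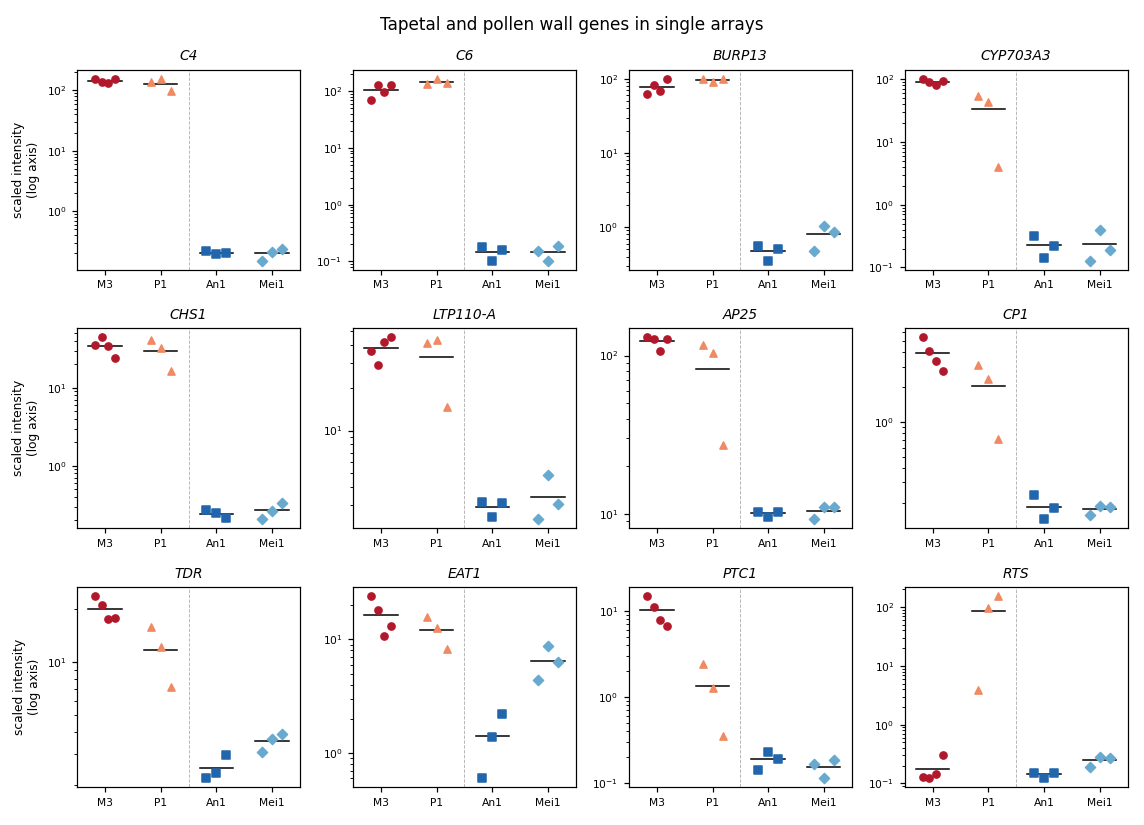
Scaled intensity (log axis) of tapetum and pollen wall genes in each array of M3, P1, An1 and Mei1; each point is 1 array and the bar is the stage mean. C4 and C6 lie at or above 70.7 in every M3 and P1 array and below 0.25 in every premeiotic one, while RTS is high in P1 alone.

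Regulators of the tapetum differed in course: 4 of the 6 tested rose (5.64% of all genes did), and 2, PTC1 among them, were called lower in P1 than in M3. TDR, a bHLH factor needed for tapetal cell death, read 23.7, 20.8, 17.5 and 17.6 in M3 and 15.8, 12.2 and 7.17 in P1, against 2.21, 2.34 and 2.97 in An1 and 3.08, 3.67 and 3.90 in Mei1 (log2 difference 2.05, SE 0.213, adjusted p = 2.01e-06). EAT1, a bHLH factor that acts after TDR, read 24.2, 18.1, 10.7 and 13.1 in M3 and 15.6, 12.6 and 8.28 in P1, against 0.607, 1.38 and 2.22 in An1 and 4.36, 8.67 and 6.26 in Mei1 (1.87, adjusted p = 0.000699). Its sides overlapped, since the highest Mei1 array was above the lowest P1 array. PTC1, a PHD-finger regulator of tapetal death and the pollen wall, read 15.0, 10.97, 7.91 and 6.60 in M3 and 2.43, 1.26 and 0.354 in P1, against 0.115 to 0.228 in An1 and Mei1 (2.21, adjusted p = 0.00139). PTC1 was thus high in M3 and much closer to the premeiotic level in P1.

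None of the 6 was called lower in the pooled comparison (list median 1.496), but 1 was called lower in P1 against the premeiotic arrays. The other riser was GAMYB, a gibberellin-regulated MYB factor of the aleurone and anther, with 15.5 to 25.5 in M3 and P1 and 6.42 to 9.95 in An1 and Mei1 (1.12); it and the next 2 genes lie outside the naming rule and were named after their values were seen. BHLH142, a bHLH factor that acts between UDT1 and TDR, had 1.69 to 7.89 in M3 and P1 and 5.88 to 10.4 in An1 and Mei1, a difference of -0.85 that missed the size threshold. API5, an inhibitor of cell death, had 5.56 to 8.88 in M3 and P1 and 9.07 to 11.6 in An1 and Mei1 (-0.50, not called). Without M3 replicate 2, 1 of the 6 was called lower.

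The tapetal proteases rose, 2 of the 2 tested, against 5.64% of all genes. AP25, an aspartic protease that EAT1 activates in the dying tapetum, read 130, 128, 107 and 128 in M3 and 116, 104 and 27.2 in P1, against 9.63 to 10.3 in An1 and 9.27 to 11.2 in Mei1 (log2 difference 3.11, SE 0.293, adjusted p = 7.76e-07). CP1, a cysteine protease, had 0.711 to 5.41 (median 3.12) in M3 and P1 and 0.144 to 0.232 (median 0.182) in An1 and Mei1, a difference of 1.71. For both genes P1 replicate 3 held the lowest of the 7 values.

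Sugar handling genes rose in part, 8 of 28 tested with 0 lower (list median 0.19), where 5.64% of all genes rose and 3.75% fell. SWEET11, a sucrose exporter, read 64.5, 49.2, 58.6 and 61.8 in M3 and 56.5, 48.1 and 25.7 in P1, against 2.31 to 3.24 in An1 and 3.94 to 4.98 in Mei1 (log2 difference 3.496, SE 0.204, adjusted p = 6.81e-09). CIN2, a cell wall invertase that splits the exported sucrose, read 21.9, 15.9, 18.1 and 15.7 in M3 and 19.7, 12.8 and 3.10 in P1, against 1.21 to 1.76 in An1 and 2.04 to 2.30 in Mei1 (2.41). SWEET15, another sugar exporter, read 3.08 to 3.61 in M3 and 10.6, 16.3 and 4.17 in P1, against 0.146 to 0.324 in An1 and Mei1 (2.38). In these 3 genes the sides did not overlap. HXK6, a hexokinase that is not in this list, had 65.9, 58.8, 30.9 and 36.3 in M3 and 45.6, 25.6 and 4.9996 in P1, against 0.427 to 0.865 in An1 and Mei1 (4.30). SWEET6A, SWEET1A, SUT5, SWEET5 and SUS2 were the other risers of the list. Of 9 starch genes, 1 rose and 0 fell, though 8 had negative differences (list median -0.21). At the adjusted p alone 5 were lower, where 50.5% of all probe sets passed in either direction. Their summed level was 16.9 to 24.1 in M3 and P1 and 25.1 to 29.5 in An1 and Mei1. The riser was SSII-3, a starch synthase, with 1.42 to 4.93 (median 1.72) in M3 and P1 and 0.224 to 0.421 (median 0.287) in An1 and Mei1 (1.29).

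Membrane channels and transporters were also among the risers, with 7 of 20 aquaporin family genes higher and 0 lower (list median 0.41). Over all genes tested, 5.64% were higher and 3.75% lower. NIP4-1, of the nodulin-26-like group, read 94.3, 94.0, 70.1 and 79.9 in M3 and 103, 98.5 and 51.6 in P1, against 0.175 to 0.235 in An1 and Mei1 (log2 difference 6.12, SE 0.136, adjusted p = 4.15e-13). NIP1-1, of the same group, had 35.5 to 84.1 (median 62.2) in M3 and P1 and 6.71 to 9.21 (median 7.70) in An1 and Mei1 (2.71), and the plasma membrane water channel PIP2-2 had 3.60 to 8.45 and 0.384 to 0.769 (2.01). PIP2-2 was higher still later, averaging 4.29 in M3, 6.11 in P1, 44.0 in P2 and 44.7 in P3, while NIP4-1 and NIP1-1 were lower in P2 and P3. Of 17 potassium transporters of the HAK family tested, HAK1 (2.08), HAK17 (1.92) and HAK13 (1.51) rose and 0 fell. HAK1 had 4.49 to 6.48 (median 5.17) in M3 and P1 and 0.385 to 0.628 (median 0.521) in An1 and Mei1. In P3 HAK1 averaged 32.2, HAK17 9.76 and HAK13 0.244, against 5.68, 7.90 and 1.43 in P1.

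Some wall and defence-type enzymes were among the called genes. Chia1d, a chitinase, read 25.9, 32.2, 7.10 and 6.05 in M3 and 44.0, 44.3 and 46.6 in P1, against 0.135 to 0.181 in An1 and Mei1 (log2 difference 4.39, SE 0.430). GLU15 read 7.03, 15.8, 19.8 and 28.2 in M3 and 35.9, 38.4 and 26.2 in P1, against 0.122 to 0.192 in An1 and Mei1 (4.31). Of 21 expansins, proteins that loosen cell walls, 2 rose and 2 fell, where 5.64% of all genes rose and 3.75% fell. EXPB3 (1.76) and EXPA7 (1.18, outside the naming rule) rose, and EXPA5 (-1.85) and EXPB17 (-1.56) fell. Without Mei1 replicate 1, 4 fell. EXPA5 had 3.35 to 18.3 (median 10.1) in M3 and P1 and 28.6 to 61.7 (median 36.8) in An1 and Mei1.

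Among 25 cellulose synthases and related enzymes, 2 rose and 2 fell, counts near those of all genes (5.64% higher and 3.75% lower). CESA4 (1.51) and CESA7 (1.15, outside the naming rule) rose, and CESA6 (-1.33) and CSLC9 (-1.15) fell. CESA6 had 3.72 to 12.6 (median 7.35) in M3 and P1 and 20.05 to 21.4 (median 21.0) in An1 and Mei1. The sides of CESA4 overlapped, and without P1 replicate 3 only 1 of the 25 was higher. Of 6 BURP-domain genes, BURP13 and BURP3 rose; BURP3 read 6.30, 12.2, 7.94 and 8.22 in M3 and 16.9, 37.4 and 77.0 in P1, against 0.712 to 1.14 in An1 and Mei1 (3.18). Of 6 glutathione transferases, GST1 (2.08) and GSTF1 (1.73) rose and 0 fell; without Mei1 replicate 2, 4 rose.

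Of 8 gibberellin genes tested, 2 rose and 0 fell, where 5.64% of all genes tested rose and 3.75% fell. EUI1, a cytochrome P450 that inactivates gibberellins, read 0.193, 0.333, 1.25 and 2.09 in M3 and 5.74, 10.8 and 9.61 in P1, against 0.195 to 0.259 in An1 and Mei1 (log2 difference 1.58, adjusted p = 0.0153), so that the sides overlapped. GA20OX3, an enzyme of gibberellin synthesis, had 2.81 to 5.22 in M3 and 5.28, 7.25 and 19.4 in P1, against 1.63 to 2.54 in An1 and Mei1 (1.13), and fell below the size threshold at 0.86 without P1 replicate 3. Without P1 replicate 3 the count of risers was 1. Against the premeiotic arrays neither gene was called in M3 alone (EUI1 0.56, GA20OX3 0.67), and both were in P1 (2.94 and 1.73). GA20OX3 averaged 10.7 in P1 and 43.0 in P2. Of 16 JAZ genes, which encode repressors of jasmonate signalling, JAZ9 (2.42) and JAZ11 (2.27) rose and JAZ4 (-1.13) fell; without M3 replicate 4, 2 fell. JAZ11 had 4.31 to 8.59 (median 5.96) in M3 and P1 and 0.320 to 0.702 (median 0.437) in An1 and Mei1. Neither riser was highest in M3 or P1. JAZ9 averaged 38.5 in M1, 47.6 in M2, 24.7 in M3, 16.1 in P1, 60.5 in P2 and 69.3 in P3. JAZ11 averaged 21.6 in M1, 26.5 in M2, 6.43 in M3, 5.90 in P1, 2.35 in P2 and 40.1 in P3.

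Of 40 auxin response genes, 4 rose and 2 fell (list median -0.04, as over all genes), where 5.64% of all genes rose and 3.75% fell. IAA1, an auxin response repressor, read 14.1, 17.6, 11.9 and 12.1 in M3 and 4.91, 2.99 and 1.58 in P1, against 1.49 to 2.16 in An1 and Mei1 (log2 difference 1.59), with overlapping sides. IAA14 (1.17), another repressor, lost its call without P1 replicate 3 (0.99), and ARF22 (1.24) is an auxin response factor. Of 22 MADS-box genes tested, MADS55 (2.06) and MADS2 (1.32), a class B gene of stamen identity, rose and 0 fell. In P3 MADS55 averaged 0.519, against 4.01 in P1. MADS2 had 45.5 to 61.3 (median 53.6) in M3 and P1 and 18.8 to 22.4 (median 21.2) in An1 and Mei1, and averaged 112 in P3. AP3, its class B partner, missed the size threshold at 0.93 and was named after its value was seen.

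Photosynthesis genes, taken as markers of green anther wall tissue, were higher for 4 of 8 tested (list median 0.97), against 5.64% of all genes. PETE, the electron carrier plastocyanin, had 12.7 to 38.4 (median 31.4) in M3 and P1 and 4.45 to 12.3 (median 6.93) in An1 and Mei1 (1.73). RBCS, the small subunit of Rubisco, had 2.39 to 8.10 and 0.751 to 1.05 (1.64), and CAB2R, a chlorophyll-binding protein, had 23.7 to 83.8 and 5.57 to 36.8 (1.52), with overlapping sides. RCA, Rubisco activase, was the other riser. RBCS1 was too dim to be tested, at 0.0476 to 0.100 in M3 and P1 and 0.0664 to 0.116 in An1 and Mei1. The summed level of the 9 genes was 53.4 to 161 in M3 and P1 and 17.85 to 72.3 in An1 and Mei1, and its part in the other rises was not tested.

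**Figure D2:**
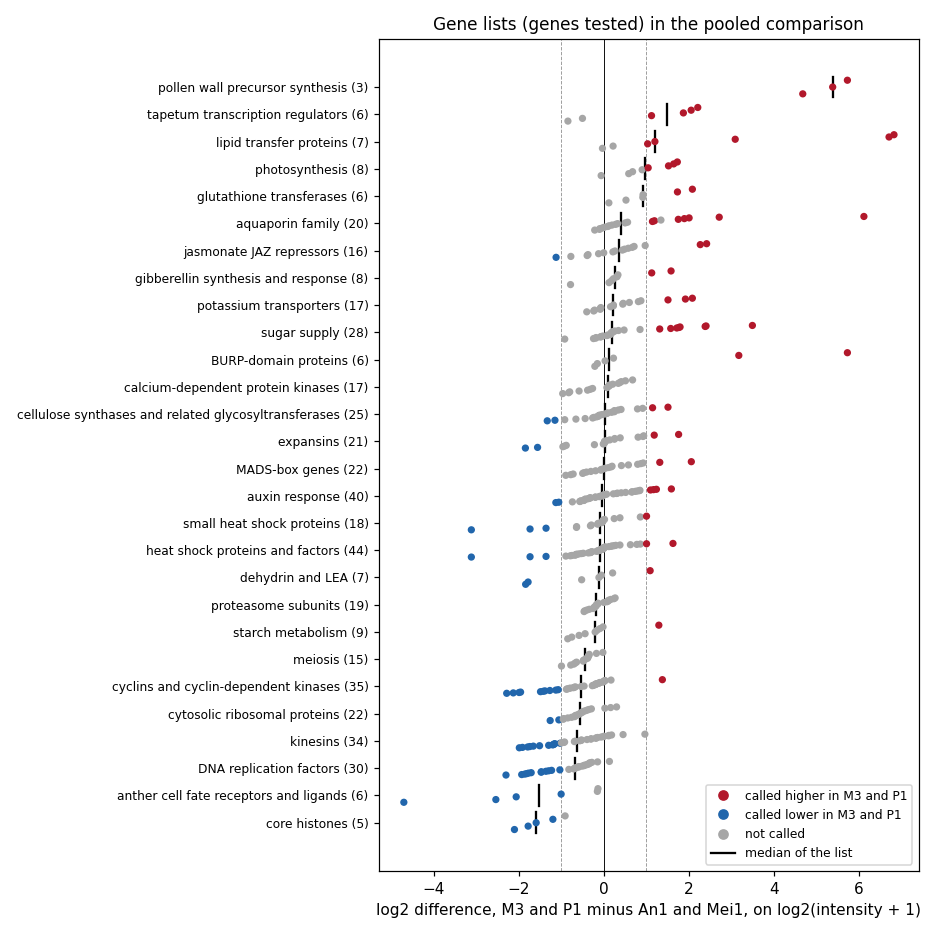
Log2 difference, M3 and P1 minus An1 and Mei1, of each tested member of the gene lists. The tapetal protease and late pollen lists (2 genes and 1 gene tested) are not drawn. Each point is 1 gene, red where called higher, blue where called lower and grey where not called. Black bars are list medians and dashed lines mark 1 log2 unit. The pollen wall list (median 5.39) and the lipid transfer list (1.20) lie to the right of 0, and the core histone list (-1.59) and the DNA replication list (-0.68) to the left.

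The largest fall among the named genes was that of MEL1. MEL1, a germ-cell Argonaute that binds small RNAs, read 0.813, 0.757, 0.934 and 0.704 in M3 and 0.638, 0.443 and 0.490 in P1, against 45.8, 48.1 and 43.3 in An1 and 40.04, 42.8 and 37.7 in Mei1 (log2 difference -4.71, SE 0.0831, adjusted p = 2.18e-14). Every M3 and P1 array was below 1 and every premeiotic array above 37. MSP1, the receptor kinase that holds back sporogenous cell number and lets wall layers form, read 4.42, 5.27, 4.98 and 4.64 in M3 and 5.68, 6.77 and 6.82 in P1, against 29.5, 28.9 and 29.2 in An1 and 23.0, 24.7 and 21.8 in Mei1 (-2.06, SE 0.109). FON1, a receptor kinase that keeps the floral meristem small, had 0.505 to 0.816 in M3 and 0.205 to 0.278 in P1, against 6.91 to 8.07 in An1 and Mei1 (-2.54).

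Of the 6 genes of this group, 4 fell and 0 rose (list median -1.54), against 3.75% and 5.64% of all genes. The 4 include TDL1A, the ligand of MSP1 (-1.01). It had 0.331 to 1.10 (median 0.518) in M3 and P1 and 1.65 to 2.86 (median 1.97) in An1 and Mei1. TDL1A lies outside the naming rule, and without Mei1 replicate 1 the count was 3. BAK1 (-0.15) and TDL1B (-0.14) were not called. LOC4352624, which has no symbol, read 5.40, 16.4, 5.65 and 4.94 in M3 and 0.309, 0.262 and 0.172 in P1, against 51.8, 69.6 and 68.4 in An1 and 72.0, 83.1 and 77.2 in Mei1 (-4.28). Further falls were of TPP7 (-2.56), a trehalose-phosphate phosphatase, OsC3H23 (-2.42), a CCCH zinc finger protein, and GRF10 (-2.08), a growth-regulating factor. TPP7 was uneven within M3, with 0.794, 0.489, 7.23 and 7.998, against 12.5 to 16.6 in An1 and Mei1.

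Of 30 DNA replication genes tested, 12 fell, 0 rose and 18 did not pass (list median -0.68). Over all genes, 3.75% fell and 5.64% rose. MCM3, a subunit of the replicative helicase, read 1.20, 1.28, 1.36 and 1.25 in M3 and 0.620, 0.536 and 0.936 in P1, against 9.54, 8.49 and 9.75 in An1 and 5.53, 11.5 and 9.61 in Mei1 (log2 difference -2.31, SE 0.145, adjusted p = 1.54e-08). PCNA, the sliding clamp of DNA polymerase, read 2.42, 1.99, 2.97 and 2.58 in M3 and 2.93, 2.84 and 4.27 in P1, against 16.1, 12.1 and 15.1 in An1 and 5.68, 17.0 and 12.5 in Mei1 (-1.82). Mei1 replicate 1 was the lowest premeiotic array for both genes, and both kept to their own side. MCM2 (-1.93) and RPA70B (-1.86), a subunit of the single-strand binding complex, fell too, and the remaining 8 were MCM4, MCM5, MCM6, MCM7, RPA32A, RFC4, ORC1 and POLD1. The summed level of the 30 genes was 45.8 to 61.0 in M3 and P1 and 91.7 to 152 in An1 and Mei1. Without Mei1 replicate 1, 12 were again lower.

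Of 35 cyclins, cyclin-dependent kinases and their regulators, 10 fell, 1 rose and 24 did not pass (list median -0.53). Over all genes, 3.75% fell and 5.64% rose. CDKB2-1, a kinase of mitosis, read 2.93, 2.80, 2.19 and 2.04 in M3 and 0.853, 0.938 and 1.41 in P1, against 14.04, 13.4 and 15.6 in An1 and 8.93, 14.2 and 10.4 in Mei1 (log2 difference -2.29, SE 0.190). CYCB2-2 (-2.13) and CYCB1-1 (-1.997) are mitotic B-type cyclins. The riser was KRP1 (1.38), an inhibitor of cyclin-dependent kinases, named after its value was seen, while KRP5, of the same family, was among the 10 that fell (-1.43).

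Of the core histones only H2B genes were matched, and 4 of 5 fell (list median -1.59), where 3.75% of all genes fell. H2B.6 read 10.5, 11.7, 12.5 and 9.43 in M3 and 5.83, 6.26 and 5.61 in P1, against 48.5, 39.1 and 42.6 in An1 and 28.4, 45.3 and 37.5 in Mei1 (log2 difference -2.11). H2B.7 (-1.78) and H2B.10 (-1.59) are near-identical relatives, and probe sets of such genes can bind each other's transcripts. Of 34 kinesins, motors of the spindle and the dividing cell, 12 fell, 0 rose and 22 did not pass (list median -0.62), KIN12C (-1.99), KIN10A (-1.92) and KIN14E (-1.79) most. KIN12C had 0.908 to 2.40 in M3 and 0.212 to 0.540 in P1, against 4.72 to 8.58 in An1 and Mei1. KIN7K went the other way at 0.97 and was called without P1 replicate 3 or without An1 replicate 3.

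**Figure D3:**
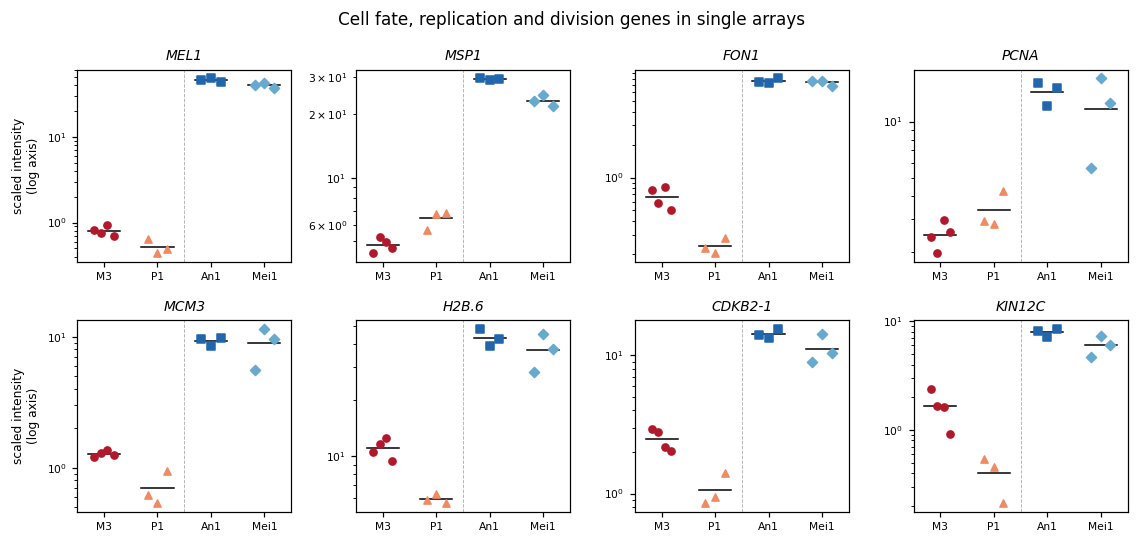
Scaled intensity (log axis) of genes lower in M3 and P1, in each array of M3, P1, An1 and Mei1; each point is 1 array and the bar is the stage mean. MEL1 lies below 1 in every M3 and P1 array and above 37 in every premeiotic one, and Mei1 replicate 1 is the lowest premeiotic array for PCNA and MCM3.

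Meiosis genes showed 0 calls of 15 tested, where 5.64% of all genes were higher and 3.75% lower. The list median was -0.44, and 14 of the 15 were lower at the adjusted p alone, where 50.5% of all probe sets passed in either direction. PAIR2, needed for chromosome pairing, had 3.19 to 5.53 (median 3.78) in M3 and P1 and 5.76 to 9.63 (median 7.93) in An1 and Mei1. DMC1, the meiotic recombinase, had 0.228 to 0.815 and 0.432 to 1.35, with overlapping sides. PSS1, a kinesin needed for male meiosis, lay just under the size threshold at -0.999, with 0.897 to 1.07 in M3 and P1 and 2.90 to 3.29 in An1 and Mei1; leaving out any of 7 arrays gave 1 call in the list. All 3 were named outside the rule for genes with calls.

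Of 22 cytosolic ribosomal protein genes, 2 fell and 0 rose, where 3.75% of all genes fell and 5.64% rose. Their list median was -0.57, and 18 lay wholly lower in M3 and P1, as did 16.7% of all probe sets tested. RPL30 had 16.5 to 22.4 (median 20.3) in M3 and P1 and 43.5 to 53.9 (median 50.6) in An1 and Mei1 (log2 difference -1.26), and RPS4 had 14.6 to 20.8 and 34.2 to 43.0 (-1.06). The summed level was 464 to 545 in M3 and P1 and 751 to 830 in An1 and Mei1. Of 19 proteasome subunits 0 were called (list median -0.17). At the adjusted p alone 1 was higher and 6 lower, where 50.5% of all probe sets passed in either direction. Of 17 calcium-dependent protein kinases 0 were called (list median 0.10), and without An1 replicate 1, M3 replicate 3 or M3 replicate 4, 1 was lower.

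Of 44 heat shock proteins and factors, 2 rose and 3 fell (list median -0.10), counts near those of all genes (5.64% higher and 3.75% lower), and among the 18 small heat shock proteins in that list 3 fell and 1 rose. HSP26.2, a small heat shock protein, read 3.27, 8.17, 6.11 and 5.88 in M3 and 1.46, 1.37 and 0.608 in P1, against 32.1 to 34.1 in An1 and 25.9, 46.1 and 37.4 in Mei1 (log2 difference -3.12). HSP18.6 (-1.74, overlapping sides) and HSP17.9A (-1.36) also fell, and HSFB1 (1.63), a heat shock factor, rose. The second riser, HSP18.1, lay at the threshold (1.004, named after its value was seen), and its call was lost without An1 replicate 1, 2 or 3, Mei1 replicate 1, M3 replicate 1, 2 or 4 or P1 replicate 2. Of 7 dehydrin and late embryogenesis genes, RAB21 (-1.84, overlapping sides) and RAB16B (-1.78) fell and rab25 (1.09) rose. The falls of RAB21 and RAB16B were not steady, since both averaged more in M1 and M2 than before meiosis. Their highest stage means were in M2 (RAB21 26.5, RAB16B 28.3), where the arrays varied widely. RAB16B varied widely before meiosis, with 4.04, 5.66 and 2.67 in An1 and 5.997, 0.845 and 1.99 in Mei1, and read 0.0817 to 0.314 in M3 and P1.

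P1 and M3 were then compared with each other. In all 648 probe sets were called (1.74%), P1 being higher for 301 (0.809%) and lower for 347 (0.933%). Of the 1295 probe sets higher in M3 and P1 together, 203 were higher in P1 than in M3 and 152 lower; of the 866 lower ones, 57 were lower still in P1 and 0 were higher in P1. Without P1 replicate 3 the counts over all probe sets were 217 and 320, and without P1 replicate 1 they were 443 and 487.

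RTS, a tapetal gene needed for fertility, had the largest such difference among the named genes (P1 minus M3 5.17, SE 0.814, adjusted p = 0.00137). It was called in P1 against the premeiotic arrays (5.15) and not in M3 (-0.02), and its 3 P1 values spread from 3.87 to 156. EUI1 (2.37), BURP3 (1.997), Chia1d (1.61), CESA4 (1.43), GSTF1 (1.39), SWEET15 (1.23), EXPB3 (1.11), HSFB1 (1.06), GA20OX3 (1.06) and GLU15 (1.01) were also higher in P1. LOC4352624 (-2.71), PTC1 (-2.28), CYP703A3 (-1.996), IAA1 (-1.91), HSP26.2 (-1.65), CYCB2-2 (-1.25), CYCB1-1 (-1.21) and EXPA5 (-1.05) were lower in P1. C4 (-0.20) and NIP4-1 (-0.06) were not called different, with standard errors of 0.132 and 0.195.

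**Figure D4:**
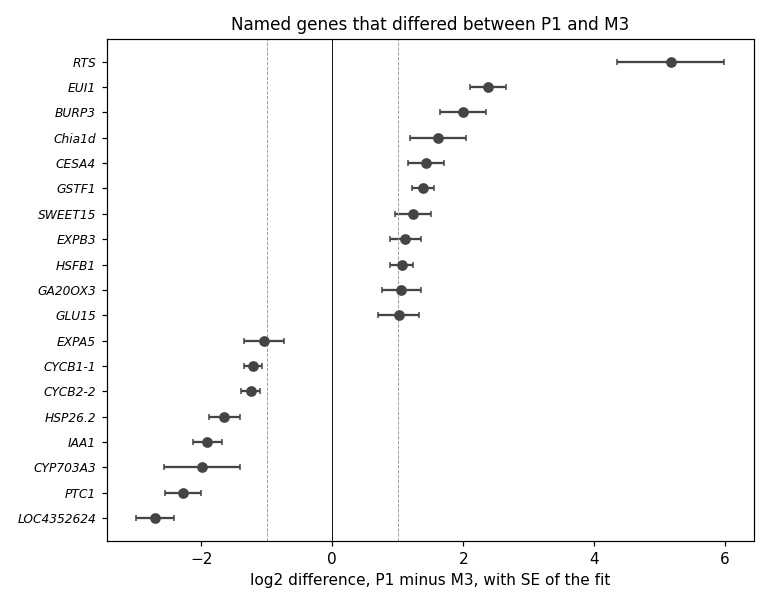
Log2 difference, P1 minus M3, of the named genes called different between these stages; the point is the estimate of the 4-stage fit, the bar its standard error and the dashed lines mark 1 log2 unit. RTS (5.17) lies far to the right and LOC4352624 (-2.71) and PTC1 (-2.28) to the left.

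P1 replicate 3 held the lowest of the 7 values for 522 of the 1295 higher probe sets (40.3%), M3 replicate 1 for 359 (27.7%), and each of the other 5 arrays for 42 to 115. P1 replicate 3 was lowest for C4 (96.2), CYP703A3 (4.04), HXK6 (4.9996), SWEET11 (25.7) and AP25 (27.2), and highest of the 7 for RTS, BURP3, GA20OX3, EXPB3, CESA4 and GSTF1.

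The same probe sets were followed over all 8 stages. The mean of M3 or P1 was the highest of the 8 stage means for 876 of the 1295 higher probe sets (67.6%), against 13.6% of all tested; the choice of risers uses these same values, so the share is a description. Of the higher set, 177 (13.7%) were at least 1 log2 unit above the premeiotic mean already in M1, 486 (37.5%) in M2, 513 (39.6%) still in P2 and 430 (33.2%) in P3. C4 averaged 9.29 in M1, 116 in M2, 145 in M3, 128 in P1 and 0.317 in P2. C6 came later, with 1.79 in M2, 106 in M3, 146 in P1 and 29.9 in P2, and RTS later again, with 0.205 in M2, 0.177 in M3, 85.8 in P1 and 144 in P2.

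Of the 866 lower probe sets, 737 (85.1%) were at least 1 log2 unit below the premeiotic mean in P2 as well and 748 (86.4%) in P3, while 461 (53.2%) were so in M2 and 41 (4.73%) in M1. The lowest stage mean lay in M3 or P1 for 194 of them (22.4%), against 19.9% of all tested. MEL1 averaged 16.0 in M1, 1.37 in M2, 0.802 in M3, 0.524 in P1, 3.30 in P2 and 0.463 in P3. MSP1 averaged 10.8 in M1, 4.56 in M2, 4.83 in M3, 6.42 in P1, 1.29 in P2 and 0.456 in P3. JAZ4 and CSLC9, lower in M3 and P1, averaged 132 and 40.5 in P3, above their premeiotic means of 4.73 to 5.06 and 6.39 to 6.86.

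**Figure D5:**
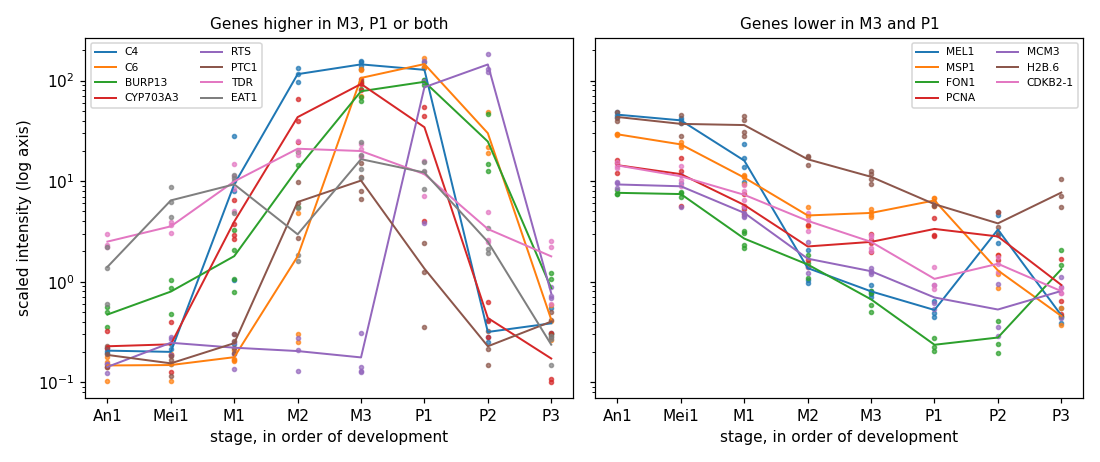
Scaled intensity (log axis) of 15 named genes over the 8 stages in order of development; lines join the stage means and points are single arrays. C4, C6 and RTS reach 100 or more one after another and drop again by P3, while MEL1, FON1 and MCM3 decline from An1 to P1.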

How the data were processed

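Anthers of 8 stages were hybridised to Affymetrix Rice Genome Arrays, per the labels from biotinylated cRNA of RNA taken with an RNeasy plant mini kit. Each deposited value is a linear intensity, which the authors scaled so that the 75th percentile of every array is 1, as the values show. The submitters' processing notes name GCOS 1.3 without a role; background correction, summarisation and detection calls are not given in the sources used here, so no value could be called absent. Arrays give no counts, and precision is set by how many there are.

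Control probe sets (187) were left out and log2(intensity + 1) was analysed for 57194. Probe sets whose mean on either side exceeded 0.280, the 40th percentile of log2 values over the 13 arrays, were tested, 37206 in all (65.1%). The fits were made with limma 3.58.1 (lmFit, and eBayes with an intensity trend) in R 4.3.3, two-sided. In the pooled comparison the difference between the stages of a side is part of the spread; the single-stage comparisons and P1 against M3 used 4 stage means over the same 13 arrays. On simulated data of the pooled design, 199 of 200 changed by 1.5 log2 units were recovered, with 3 false calls among 38949 tested. The changed probe sets were drawn only from those with a premeiotic mean log2 value above 1. Noise was normal and independent between arrays, and the spread between stages was assumed. The check therefore does not show how well rises from near the bottom of the scale are recovered. Tables were made with numpy 2.4.6 and pandas 2.3.3 and figures with matplotlib 3.10.9, in Python 3.11.15.

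Of the probe sets, 22436 name 1 gene, 95 several and 34663 none in the platform's gene table; 2457 of 17905 single genes had a symbol in a RefSeq gene table (assembly ASM3414082v1, used for names alone). Gene lists were built from symbols, so they cover only such genes, with 1 probe set a gene, that of the highest mean over the 13 arrays. Of 2573 genes with several probe sets tested, 194 had some called and some not, and 1 had calls in both directions.

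The stages compared, the lists and the genes named were chosen with earlier results of these data known. The lists were written as symbol patterns; false name matches were removed, some display names and list titles were set, and the small heat shock list was split off after the tables were opened, and a callose list was left empty. The genes named were the 10 largest rises and 10 largest falls among called single genes with a symbol and no overlap, the 2 largest of each whatever the symbol, the 3 largest called members of each list, and UDT1, TDR, EAT1, PTC1, C4, C6, CYP703A3, RTS, MSP1, MEL1 and PCNA where measured. UDT1 and ZEP1 matched no name and were not analysed here.

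Alternatives were 2 other pseudocounts, 2 other filters, quantile and median normalization, no intensity trend, array weights, a fit to all 26 arrays, equal stage weights, stage as a random block, a replicate block, the lowest probe set of each gene and leaving out each array.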

Additional observations from a re-analysis of the deposited data

Results flagged for a closer look

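A sample far from the rest of its group (Dixon's test at the 95% level, on the log2 scale) was found in 19 of 234 groups of named gene values, where chance gives about 1 in 20. P1 replicate 3 was the low array among the 7 of M3 and P1 for C4 (96.2), CYP703A3 (4.04), HXK6 (4.9996), SWEET11 (25.7), LOC4343894 (72.3), LTP110-A (14.6), AP25 (27.2) and CIN2 (3.10). Within M3, replicate 2 was high for LOC4352624 (16.4), replicate 3 low for AP25 (107), replicate 1 low for CESA4 (0.582) and replicate 4 high for RTS (0.308). M3 replicate 2 was also the high array of 7 for HSP18.6 (9.63). Among the 6 premeiotic arrays, Mei1 replicate 1 was low for H2B.7 (16.3) and PCNA (5.68) and high for PIP2-2 (0.769). Mei1 replicate 2 was high for SWEET15 (0.324), Mei1 replicate 3 high for SSII-3 (0.421) and An1 replicate 2 low for GSTF1 (0.140).

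The test of P1 against M3 found 19 named genes to differ between the stages. P1 was higher for RTS (5.17), EUI1 (2.37), BURP3 (1.997), Chia1d (1.61), CESA4 (1.43), GSTF1 (1.39), SWEET15 (1.23), EXPB3 (1.11), HSFB1 (1.06), GA20OX3 (1.06) and GLU15 (1.01), in log2 units of P1 minus M3. P1 was lower for LOC4352624 (-2.71), PTC1 (-2.28), CYP703A3 (-1.996), IAA1 (-1.91), HSP26.2 (-1.65), CYCB2-2 (-1.25), CYCB1-1 (-1.21) and EXPA5 (-1.05).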

How the results depend on the processing

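The counts depend on the pseudocount. With 4 in place of 1, the pooled comparison had 501 higher and 230 lower, M3 505 and 197, P1 596 and 327, and P1 against M3 106 and 132; with 0.25 the same pairs were 2272 and 1816, 2328 and 1672, 2532 and 2210, and 547 and 691. A larger pseudocount shrinks the differences of dim probe sets by construction. Of the pooled calls, 59.9% were higher, against 68.5% with a pseudocount of 4, 55.6% with 0.25, 60.2% after quantile normalization and 58.8% with arrays centred on the median. Under the other planned settings except leaving out arrays, the pooled counts were 1274 to 1342 higher and 858 to 914 lower. Leaving out 1 array at a time gave 1252 to 1324 higher and 835 to 921 lower in the pooled comparison, 1246 to 1317 and 759 to 819 in M3, 1405 to 1516 and 1086 to 1146 in P1, and 217 to 443 and 296 to 487 in P1 against M3. With the replicate block the pooled counts were 1293 and 914; the block changed no call of a named gene and moved 3 list counts, those of calcium-dependent kinases and of both heat shock lists. Whether the numbers pair the arrays was not settled. Deviations of arrays with the same number correlated at -0.313 to 0.354 and others at -0.310 to 0.321, and 5 of 13 arrays correlated best with their own number. Between M3 and P1 the same numbers gave 0.00782 to 0.257 and others -0.165 to 0.0623. Between An1 and P1 the same numbers gave -0.127 to -0.0761 and others -0.0272 to 0.167. With so few arrays a stage, the check cannot exclude a pairing. Of 1950 alternative values of the 78 named genes, 1925 kept direction and side of the threshold, 0 reversed and 23 fell below it, 21 of them with a pseudocount of 4 and the other 2 (GA20OX3 and IAA14) without P1 replicate 3. RTS passed with all 26 arrays (adjusted p = 8.33e-05) and with equal stage weights (0.00246), at 2.56 in both. Of 1560 alternative list counts 99 moved by over 1.5 times, 24 of them with a pseudocount of 4 (DNA replication 4 lower, kinesins 2 lower, sugar supply 5 higher, lipid transfer 3 higher) and 8 with the lowest probe set of each gene.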
